A study of Mus musculus with 12 samples.

Results

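Of the 18609 genes listed in 12 RNA-seq libraries of MC38 tumours, the 9 described here were chosen by symbol: the CC chemokine genes Ccl2, Ccl7, Ccl8, Ccl12, Ccl3, Ccl4 and Ccl5 and the CC chemokine receptor genes Ccr1 and Ccr2. All 9 were listed, and all 9 passed the filter on low values that left 12164 genes to be tested. MC38 is a mouse colon cancer line, and its tumours grew in C57BL/6 hosts. The 4 groups of 3 libraries were TLR4 knockout hosts given Salmonella, TLR4 knockout hosts given PBS, WT hosts given Salmonella and WT hosts given PBS. Salmonella or PBS was injected intravenously 1 day before the tumours were taken, and PBS (phosphate-buffered saline) is the vehicle. Neither the Salmonella strain and dose nor the ages of the mice are stated in the labels. TLR4 binds lipopolysaccharide from the outer membrane of bacteria such as Salmonella and starts inflammatory signalling, and the design asks how the tumour's response to the bacteria differs with host TLR4.

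CC chemokines are small secreted proteins that draw leukocytes along a gradient, and they act through G-protein-coupled receptors on the surface of the responding cell. In mice, CCL2, CCL7 and CCL12 act on CCR2, the receptor that Ly6C-high monocytes need to leave the bone marrow. Mouse CCL8 is known as an agonist of CCR8. CCL3 and CCL5 act on CCR1, which is carried by neutrophils, monocytes and macrophages. In tumours, the CCL2 and CCR2 pair is known for supplying the monocytes that become tumour macrophages. Stimulated macrophages and other stromal cells make many of these chemokines.

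All 7 ligand genes lie on chromosome 11 and both receptor genes on chromosome 9 (GENCODE M21, build GRCm38, matched by symbol). Ccl2 spans chr11:82035571-82037453, Ccl7 chr11:82045712-82047525, Ccl12 chr11:82101845-82103400 and Ccl8 chr11:82115185-82116799, all on the plus strand. Ccl5 spans chr11:83525778-83530518 and Ccl3 chr11:83647844-83649355 on the minus strand, and Ccl4 spans chr11:83662584-83664683 on the plus strand. Ccr1 spans chr9:123962124-123968692 on the minus strand, and Ccr2 spans chr9:124101950-124113557 on the plus strand. The protein-coding gene Gm17268 overlaps Ccl2 on the opposite strand, and no strand setting is given for the authors' counting. The overlap is one of gene spans, and the exons of both genes were not compared. Whether it affected the fragments of Ccl2 is therefore not known here. Of the 6758 runs of 50 bases in the exons of Ccr2, 209 also occur in other genes, so a small part of the Ccr2 fragments is uncertain. Read in the direction of the transcripts, the other 8 members share 0 such runs with other genes.

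Promoters (250 bases before to 50 after the start site) were found for 5 of the 9 members, Ccl8, Ccl12, Ccl3, Ccr1 and Ccr2, in RefSeq, build GRCm38.p6. Shown are 2 pairs of neighbours whose fitted changes after Salmonella differ in sign in WT hosts: Ccl8 and Ccl12 on chromosome 11, neither of which passed, and Ccr1 and Ccr2 on chromosome 9. Each runs 5′ to 3′ on the gene's own strand, and capitals mark a match to 1 of 5 searched motifs. Ccl8 is at chr11:82114935-82115234 (plus strand), Ccl12 at chr11:82101595-82101894 (plus strand), Ccr1 at chr9:123968643-123968942 (minus strand) and Ccr2 at chr9:124101933-124102232 (plus strand).
Ccl8: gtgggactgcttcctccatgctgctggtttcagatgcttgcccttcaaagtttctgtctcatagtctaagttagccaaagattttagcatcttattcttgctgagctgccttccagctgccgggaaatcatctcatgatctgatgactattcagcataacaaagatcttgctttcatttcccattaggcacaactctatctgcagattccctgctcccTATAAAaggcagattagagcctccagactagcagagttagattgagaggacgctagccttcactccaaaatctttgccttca
Ccl12: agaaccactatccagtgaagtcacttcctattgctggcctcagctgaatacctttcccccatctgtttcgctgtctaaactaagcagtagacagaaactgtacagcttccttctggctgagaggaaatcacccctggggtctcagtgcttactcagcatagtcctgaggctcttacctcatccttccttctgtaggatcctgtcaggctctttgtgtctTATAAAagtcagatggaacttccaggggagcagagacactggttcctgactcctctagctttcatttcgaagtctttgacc
Ccr1: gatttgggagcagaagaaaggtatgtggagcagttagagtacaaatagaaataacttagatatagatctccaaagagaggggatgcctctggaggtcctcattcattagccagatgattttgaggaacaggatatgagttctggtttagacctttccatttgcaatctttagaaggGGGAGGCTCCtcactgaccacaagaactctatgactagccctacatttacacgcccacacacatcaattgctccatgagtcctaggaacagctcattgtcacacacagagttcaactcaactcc
Ccr2: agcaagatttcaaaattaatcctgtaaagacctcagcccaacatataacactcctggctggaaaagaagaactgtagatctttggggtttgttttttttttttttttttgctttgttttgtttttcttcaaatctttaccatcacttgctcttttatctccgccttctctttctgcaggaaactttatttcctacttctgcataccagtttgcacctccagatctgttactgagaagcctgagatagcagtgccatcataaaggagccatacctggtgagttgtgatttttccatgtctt

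The motifs were searched on both strands, and no match overlapped another. A TATA box (TATAAA, in 13.6% of 32851 promoters of the same length) began at -32 in Ccl8 and at -31 in Ccl12. An NF-kB motif (GGG and CC with 5 bases between, in 50.8% of promoters) began at -74 in Ccr1, as GGGAGGCTCC. The letters searched for AP-1 (TGANTCA, 7.8%), C/EBP (TTGCNNAA, 10.8%) and the interferon-stimulated response element (GAAA and GAAA with 2 bases between, 3.4%) are in none of the 5 windows. The windows of Ccl3 and Ccr2 hold no match to any of the 5 motifs. The Ccr2 window, chr9:124101933-124102232, lies mostly inside the GENCODE span of Ccr2, which starts at 124101950. By that annotation it is mostly not upstream sequence.

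Values are taken as FPKM, fragments scaled to gene length and to the library's total, so levels of different genes can be set side by side. Their unit is not stated. Libraries held 30508678 to 38758885 fragments on listed genes, and each member held at least 46 fragments in every library. Tlr4 itself had 1.72, 1.96 and 1.82 FPKM in the TLR4 knockout Salmonella libraries and 2.14, 3.15 and 1.59 FPKM in the TLR4 knockout PBS libraries, against 2.62, 3.78 and 2.58 FPKM in WT Salmonella and 2.58, 2.48 and 2.53 FPKM in WT PBS. No label says which exons were removed or whether MC38 cells themselves carry the deletion, so Tlr4 RNA in every knockout library neither checks nor contradicts the labels. The samples are labelled as colon cancer cells and also as tumour tissue. The 5 listed epithelial markers, Epcam, Krt8, Krt18, Krt19 and Cdh1, summed to 0.399 to 2.46 FPKM and none was tested, whereas macrophage markers summed to 519 to 1627 FPKM. The libraries are thus whole tumours, in which fewer cells of a type and less RNA per cell cannot be told apart. Libraries are titled F-1, M-1 and M-2 in each group. The letters are not explained, but 4 Y-linked genes held 0 to 1 fragments in the F libraries and 266 to 1247 in the M libraries. The labels do not say whether each library is its own animal, and p-values measure the spread between libraries, which may in part be technical. WT Salmonella M-2 stood apart from its mates: the chi-square per gene was 145 and 175 to F-1 and M-1, against 56.7 between those. Member calls that turn on it are also given without it. The same is done for only some of the list counts, and others shift without it too.

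In tumours of WT hosts, 5 of the 7 ligands and Ccr1 rose after Salmonella and Ccr2 fell. Ccl3 rose 33.7-fold, Ccl4 13.2-fold, Ccl2 4.23-fold, Ccl5 3.7-fold and Ccl7 3.12-fold, while Ccr1 rose 4.47-fold and Ccr2 was at 0.344 of its PBS level. Ccl8 and Ccl12 did not pass. These 6 rises and 1 fall among the 9 members stand beside 35.6% of all tested genes that passed in this comparison (limma on log2 of scaled FPKM + 0.5, adjusted p under 0.05), 19.7% higher and 15.8% lower. At an unadjusted p under 0.05 there were 6 ligands and both receptors, beside 47.6% of all genes. By FPKM before scaling, WT Salmonella and WT PBS libraries did not overlap for 7 members that were higher and 1 that was lower. The share of all tested genes was 45.4%, likewise before scaling, and overlap was not counted on scaled values. Scaling factors were 0.841, 0.842 and 1.026 in WT Salmonella F-1, M-1 and M-2, against 1.038, 1.039 and 1.046 in WT PBS. The median log2 change of the ligands was 1.89, beside 0.004 for all genes.

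The CCR2 ligands Ccl2 and Ccl7 rose in every WT Salmonella library. Ccl2 had 971, 542 and 428 FPKM in WT Salmonella F-1, M-1 and M-2, against 185, 149 and 166 FPKM in WT PBS. Its lowest Salmonella value lay well above its highest PBS value, and the log2 change was 2.08 (SE 0.31, adjusted p = 0.00174). Ccl7, whose protein also acts on CCR1 and CCR3, had 138, 83.2 and 93.5 FPKM, against 39.1, 34.7 and 39.2 FPKM in WT PBS. The WT PBS values lay close together, and the log2 change was 1.64 (SE 0.33, adjusted p = 0.00557).

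Ccl8 and Ccl12, the other ligands of the same stretch of chromosome 11, varied between the WT Salmonella libraries. Ccl8 had 303, 126 and 107 FPKM in WT Salmonella F-1, M-1 and M-2, against 69.7, 46.1 and 60.4 FPKM in WT PBS. All 3 Salmonella values were above all 3 PBS values, but F-1 was far above its mates, and the log2 change of 1.67 (SE 0.63, adjusted p = 0.0615) did not pass. It did pass without WT Salmonella M-2 (2.05, adjusted p = 0.0374), and also without TLR4 knockout PBS M-1, TLR4 knockout PBS M-2 or TLR4 knockout Salmonella F-1, with adjusted p of 0.0374 to 0.0483 over these 4. Ccl12 had 10.3, 10.6 and 41.1 FPKM, against 26.8, 16.8 and 24.3 FPKM in WT PBS. F-1 and M-1 lay below every WT PBS library and M-2 above all of them, and the log2 change was -0.20 (SE 0.38, adjusted p = 0.695). Without WT Salmonella M-2 it was -0.75 and passed (adjusted p = 0.00695), so that 1 library decides whether Ccl12 counts as lower.

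Ccl3 and Ccl4, which encode the neighbouring macrophage inflammatory proteins 1-alpha and 1-beta, had the steepest rises of the 9. Ccl3 had 101, 579 and 59.1 FPKM in WT Salmonella F-1, M-1 and M-2, against 4.6, 5.32 and 4.23 FPKM in WT PBS (log2 change 5.08, SE 0.81, adjusted p = 0.00255). Ccl4 had 99.6, 654 and 43.2 FPKM, against 10.8, 14.9 and 10.5 FPKM in WT PBS (log2 change 3.72, SE 0.82, adjusted p = 0.00855). For both genes M-1 was several times above F-1 and M-2, and the groups did not overlap. Ccl5, also called RANTES and known from T cells, platelets and macrophages, had 558, 396 and 142 FPKM, against 81.7, 137 and 84.7 FPKM in WT PBS. M-2 lay only just above the highest PBS library, and the log2 change was 1.89 (SE 0.49, adjusted p = 0.0156). The Ccl5 call was lost without WT PBS F-1 (adjusted p = 0.0502), WT PBS M-2 (0.0554), WT Salmonella F-1 (0.0654) or WT Salmonella M-1 (0.0585).

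The receptors went opposite ways. Ccr1 had 39.2, 62.8 and 19.1 FPKM in WT Salmonella F-1, M-1 and M-2, against 8.13, 11.4 and 7.79 FPKM in WT PBS (log2 change 2.16, SE 0.43, adjusted p = 0.00576). Ccr2 had 2.37, 1.64 and 4.39 FPKM, against 8.09, 11.1 and 10.2 FPKM in WT PBS (log2 change -1.54, SE 0.27, adjusted p = 0.00341). Neither receptor's groups overlapped, and M-2 lay nearest to the PBS libraries for both. The FPKM ratio of Ccr1 to Ccr2 was 16.5, 38.4 and 4.36 in WT Salmonella, against 1, 1.03 and 0.762 in WT PBS, so that receptors at like levels under PBS were far apart under Salmonella.

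**Figure D1:**
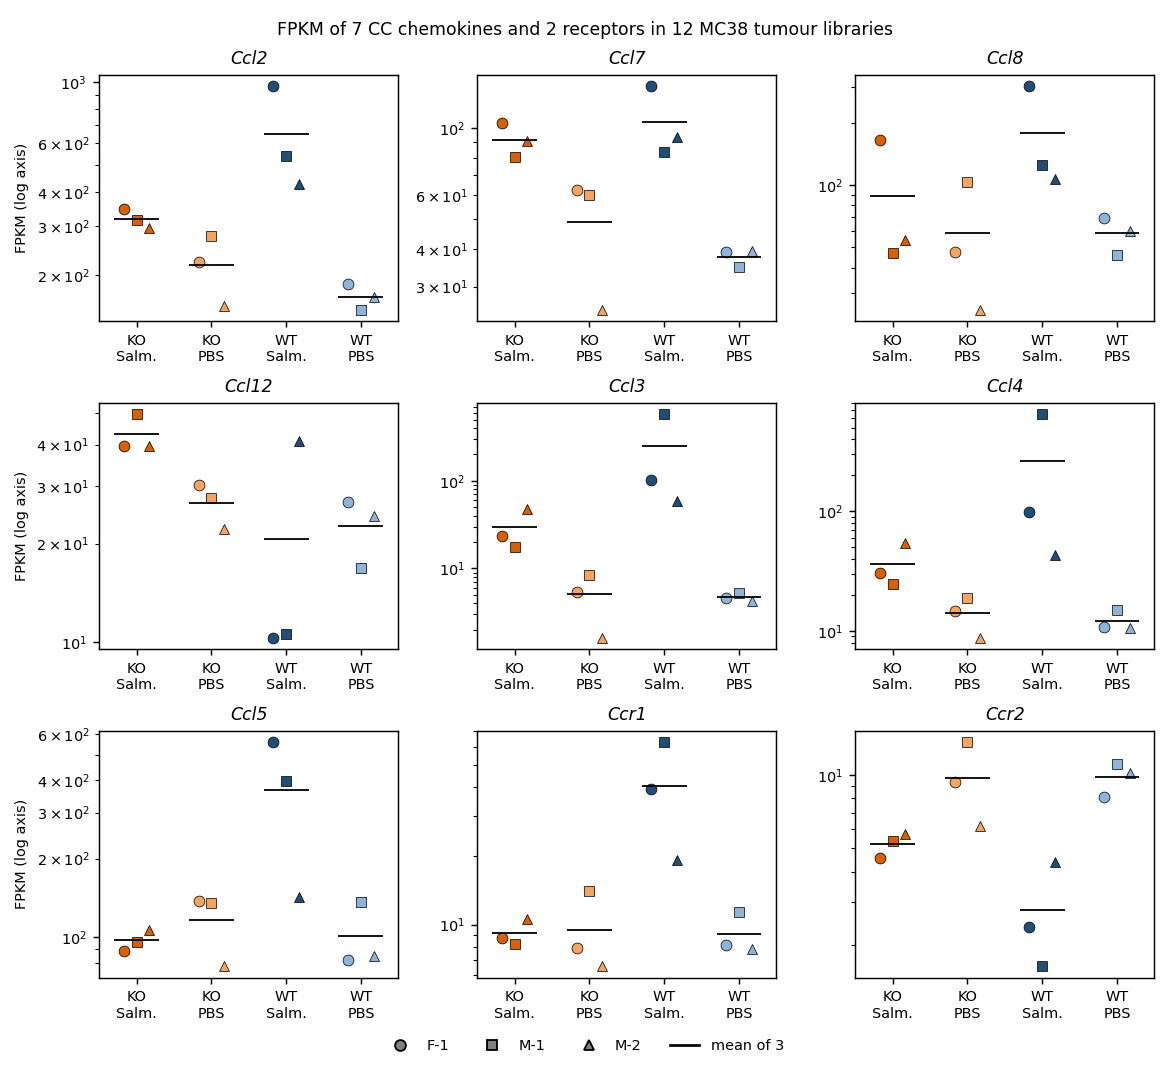
FPKM (log axis) of each member in every library, with TLR4 knockout (KO) Salmonella, KO PBS, WT Salmonella and WT PBS from left to right, a marker for each library label and a bar at the mean of 3. Ccl3 reaches 579 FPKM in WT Salmonella M-1 against 4.23 to 5.32 FPKM in WT PBS, while Ccr2 is lowest in WT Salmonella, at 1.64 to 4.39 FPKM.

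The title letters gave the same direction for 8 members. Between the F-1 libraries of WT Salmonella and WT PBS, and between the means of the M libraries, the log2 difference was 2.69 and 1.78 for Ccl2, 2.11 and 1.41 for Ccl7, 2.42 and 1.29 for Ccl8, 4.61 and 5.31 for Ccl3, and 3.45 and 3.86 for Ccl4. It was 3.07 and 1.30 for Ccl5, 2.5 and 1.99 for Ccr1, and -1.32 and -1.65 for Ccr2. Ccl12 was the exception, with -1.04 among F and 0.21 among M libraries. An F library stands alone in each group, so the letters allow no test within F. The scaling also bears on this comparison: with FPKM as deposited the median of all genes shifted to -0.186 and 30.8% of calls were higher, against 55.5% with scaling, while the same count of members, 6 higher and 1 lower, passed.

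In tumours of TLR4 knockout hosts, 0 of the 9 members passed after Salmonella, beside 0.797% of all tested genes, 0.469% higher and 0.329% lower. Ccl3 and Ccl7 had the lowest p among the ligands, with fitted folds of 5.88 and 2.03, and that of Ccr2 was 0.595. At an unadjusted p under 0.05 there were 2 ligands and 1 receptor, beside 19.2% of all genes, and voom on the recovered fragments also gave 0 calls. The TLR4 knockout Salmonella and TLR4 knockout PBS libraries did not overlap for 5 members that were higher, Ccl2, Ccl7, Ccl12, Ccl3 and Ccl4, and 1 that was lower, Ccr2, beside 29.4% of all genes. The median log2 change of the ligands was 0.71, beside 0.004 for all genes.

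Ccl2 had 347, 316 and 296 FPKM in TLR4 knockout Salmonella F-1, M-1 and M-2, against 223, 277 and 154 FPKM in TLR4 knockout PBS (log2 change 0.62, SE 0.31, adjusted p = 0.309). Ccl7 had 104, 80.3 and 90.6 FPKM, against 62.3, 60 and 25.1 FPKM in TLR4 knockout PBS (log2 change 1.02, SE 0.33, adjusted p = 0.143). For both genes the Salmonella libraries lay above all PBS libraries, and PBS M-2 was the lowest. Ccl8 had 166, 47 and 54.3 FPKM, against 47.4, 104 and 24.9 FPKM in TLR4 knockout PBS, and the groups overlapped (log2 change 0.62, SE 0.63, adjusted p = 0.616). Ccl12 had 39.7, 49.6 and 39.6 FPKM, against 30.1, 27.6 and 22.1 FPKM in TLR4 knockout PBS (log2 change 0.71, SE 0.38, adjusted p = 0.339). The mean of 43 FPKM is the highest Ccl12 group mean of the study, against 26.6 FPKM in TLR4 knockout PBS. WT Salmonella M-2, at 41.1 FPKM, lay within the range of these TLR4 knockout Salmonella values. Ccl12 passed here only when WT Salmonella M-2, which adds to the shared spread, was left out (0.71, adjusted p = 0.0368), or when only the groups compared were fitted.

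Ccl3 had 23.3, 17.7 and 48.2 FPKM in TLR4 knockout Salmonella, against 5.35, 8.37 and 1.6 FPKM in TLR4 knockout PBS (log2 change 2.56, SE 0.81, adjusted p = 0.142). Ccl4 had 30.5, 24.5 and 54 FPKM, against 14.6, 19 and 8.69 FPKM in TLR4 knockout PBS (log2 change 1.35, SE 0.82, adjusted p = 0.402). M-2 was the highest Salmonella library and the lowest PBS library for both. Ccl5 had 88.6, 96 and 107 FPKM, against 138, 135 and 77.3 FPKM in TLR4 knockout PBS, with a log2 change of -0.19 (interval -1.27 to 0.90). Ccr1 had 8.71, 8.19 and 10.6 FPKM, against 7.92, 14 and 6.56 FPKM in TLR4 knockout PBS, with a log2 change of 0.040 (interval -0.92 to 1.00). Neither gene's Salmonella values left the range of the PBS libraries. Ccr2 had 4.57, 5.34 and 5.71 FPKM, against 9.34, 13.6 and 6.19 FPKM in TLR4 knockout PBS, with no overlap (log2 change -0.75, SE 0.27, adjusted p = 0.182).

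**Figure D2:**
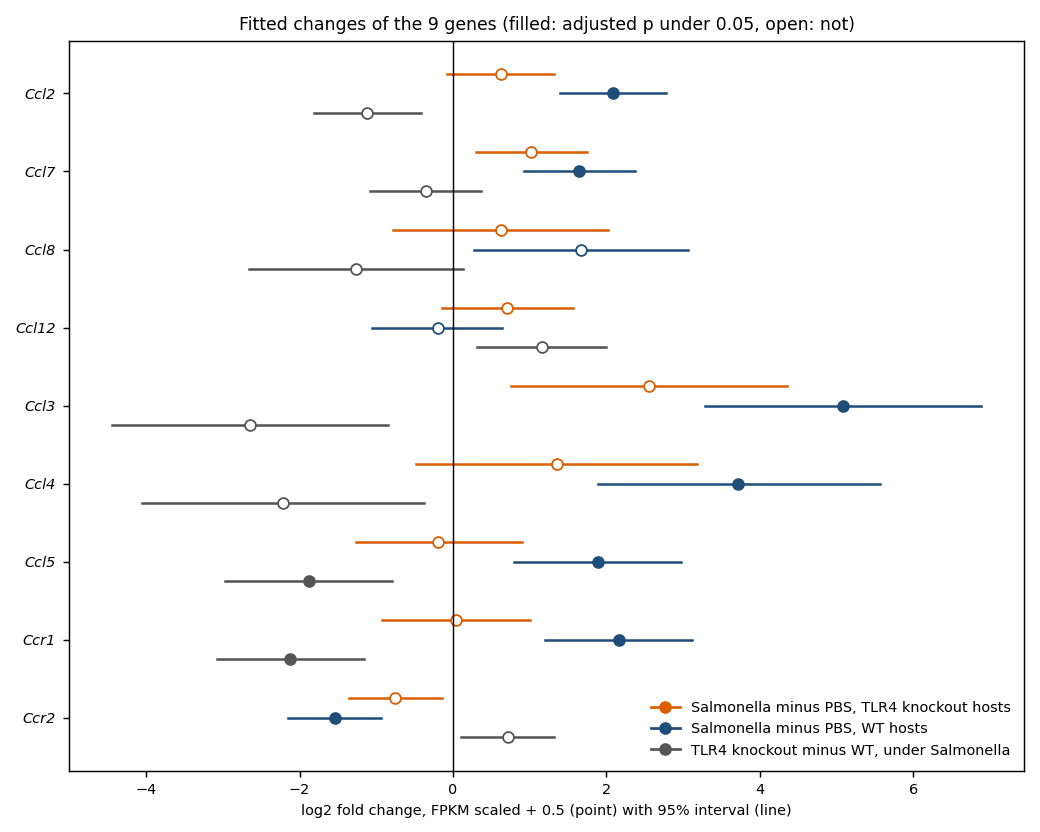
Fitted log2 fold changes of the 9 members (points, on scaled FPKM + 0.5) with 95% intervals (lines), for Salmonella minus PBS in TLR4 knockout hosts, Salmonella minus PBS in WT hosts, and TLR4 knockout minus WT under Salmonella. Filled points passed: 0 members in TLR4 knockout hosts, 7 members in WT hosts and Ccl5 and Ccr1 between hosts under Salmonella.

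Set directly against WT hosts under Salmonella, tumours of TLR4 knockout hosts had less Ccl5 and Ccr1, 2 falls among the 9 members beside 8.64% of all tested genes that passed, with 2.63% higher and 6.01% lower. Ccl5 was at 0.271 of the WT level and Ccr1 at 0.23. At an unadjusted p under 0.05 there were 5 ligands and both receptors, beside 30.3% of all genes. The libraries did not overlap for 4 members that were lower, Ccl2, Ccl3, Ccl5 and Ccr1, and 1 that was higher, Ccr2, beside 27.0% of all genes. Overlap is again by FPKM before scaling. This comparison shares its WT Salmonella libraries with the one in WT hosts, so the 2 sets of values are not independent.

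Ccr1 had 8.71, 8.19 and 10.6 FPKM in TLR4 knockout Salmonella, against 39.2, 62.8 and 19.1 FPKM in WT Salmonella (log2 change -2.12, SE 0.43, adjusted p = 0.0229). The lowest WT library, M-2, was still above the highest knockout library. Ccl5 had 88.6, 96 and 107 FPKM, against 558, 396 and 142 FPKM in WT Salmonella (log2 change -1.88, SE 0.49, adjusted p = 0.044). Both calls are near the limit of these data. The Ccl5 call was lost without 10 of the 12 libraries, all but WT Salmonella M-2 and TLR4 knockout PBS M-2, with adjusted p of 0.0544 to 0.163. The Ccr1 call was lost without WT Salmonella F-1 (adjusted p = 0.107), WT Salmonella M-1 (0.0886), TLR4 knockout Salmonella M-1 (0.0907) or TLR4 knockout Salmonella M-2 (0.0641).

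The other members did not pass. Ccl2 had 347, 316 and 296 FPKM in TLR4 knockout Salmonella, against 971, 542 and 428 FPKM in WT Salmonella, with no overlap (log2 change -1.12, SE 0.31, adjusted p = 0.0514). It passed without TLR4 knockout PBS M-2 (adjusted p = 0.0443). Ccl3 had a log2 change of -2.65 (interval -4.44 to -0.85, adjusted p = 0.0668) and Ccl4 of -2.21 (interval -4.05 to -0.38, adjusted p = 0.107). TLR4 knockout M-2, at 54 FPKM, lay above WT M-2, at 43.2 FPKM, for Ccl4. Ccl7 differed least among the ligands, with 80.3 to 104 FPKM in TLR4 knockout Salmonella inside the 83.2 to 138 FPKM of WT Salmonella but for its lowest library (log2 change -0.35, interval -1.08 to 0.37). Ccl8 had a log2 change of -1.27 (interval -2.66 to 0.13). Ccl12 and Ccr2 pointed the other way, with log2 changes of 1.16 (SE 0.38, adjusted p = 0.0801) and 0.72 (SE 0.27, adjusted p = 0.112).

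Without WT Salmonella M-2, 5 members were lower in TLR4 knockout Salmonella than in WT Salmonella and 2 were higher, with 4555 calls over all genes in place of 1051. The log2 changes were then -1.47 for Ccl2 (adjusted p = 0.00364), -3.42 for Ccl3 (0.0101), -3.16 for Ccl4 (0.00843), -2.55 for Ccl5 (0.000428), -2.66 for Ccr1 (0.000428), 1.71 for Ccl12 (0.000197) and 0.97 for Ccr2 (0.0181). Within title letters, the log2 difference of TLR4 knockout from WT under Salmonella kept its sign for all 9 members. It was -1.73 among F and -0.81 among M libraries for Ccl2, -2.89 and -1.38 for Ccl5, -2.35 and -2.0 for Ccr1, and 1.66 and 0.91 for Ccl12. With FPKM as deposited the median of all genes shifted to 0.161, and 58.5% of calls were higher, against 30.4% with scaling; Ccl5 and Ccr1 still passed as lower.

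The difference between the Salmonella effects in both hosts, knockout effect minus WT effect, was tested as an interaction. None of the 9 members passed, beside 0.0247% of all genes (3 genes), and 0 passed in voom. At an unadjusted p under 0.05 there were Ccr1 (log2 difference -2.12, interval -3.47 to -0.76, adjusted p = 0.245), Ccl2 (-1.46, interval -2.45 to -0.48, adjusted p = 0.254) and Ccl5 (-2.07, interval -3.61 to -0.54, adjusted p = 0.272), beside 14.4% of all genes. The intervals of the other ligands included 0, also that of Ccl3 (-2.52, interval -5.07 to 0.023). So the lack of passes in TLR4 knockout hosts and the passes in WT hosts do not by themselves show a different response. Without WT Salmonella M-2, Ccl2 (-1.81, adjusted p = 0.0127), Ccl4 (-3.32, adjusted p = 0.0414), Ccl5 (-2.74, adjusted p = 0.00431) and Ccr1 (-2.66, adjusted p = 0.00517) passed as lower and Ccl12 (1.47, adjusted p = 0.00513) as higher, among 2237 genes in all. A single library thus decides whether these members count as different between hosts.

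Under PBS, 0 of the 9 members passed between TLR4 knockout and WT hosts, beside 0 of all genes (0% at adjusted p and 1.44% at an unadjusted p under 0.05; voom also called 0 members). All 9 members overlapped between the groups, while 7.89% of all genes did not. Ccl2 averaged 218 ± 61.2 FPKM in TLR4 knockout PBS and 167 ± 17.8 FPKM in WT PBS (SD, n = 3 each), with a log2 interval of -0.35 to 1.04. Ccr1 averaged 9.5 ± 3.97 and Ccr2 9.71 ± 3.72 FPKM in TLR4 knockout PBS, against 9.12 ± 2.01 and 9.82 ± 1.56 FPKM in WT PBS. The intervals were -0.96 to 0.96 for Ccr1 and -0.68 to 0.53 for Ccr2. For Ccl3 the interval ran from -1.92 to 1.67, which leaves room for severalfold differences in either direction.

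Across the 4 groups the order of mean levels differed between members. For Ccl2 and Ccl3, WT Salmonella was highest and TLR4 knockout Salmonella next, each without overlap with the next group down, while both PBS groups overlapped. For Ccl7 and Ccl4 the same order held, but both Salmonella groups overlapped. For Ccl5 and Ccr1, WT Salmonella stood alone and the other 3 groups overlapped. Ccr2 ran the other way, with WT PBS and TLR4 knockout PBS overlapping at the top, TLR4 knockout Salmonella below them and WT Salmonella lowest. For Ccl8 each group overlapped with the next. For Ccl12 TLR4 knockout Salmonella had the highest mean, without overlap with TLR4 knockout PBS. It did overlap with WT Salmonella, whose M-2 library had 41.1 FPKM.

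Together the 7 ligands summed to 799, 631 and 690 FPKM in TLR4 knockout Salmonella F-1, M-1 and M-2 and to 520, 630 and 314 FPKM in TLR4 knockout PBS, against 2180, 2391 and 913 FPKM in WT Salmonella and 417, 404 and 390 FPKM in WT PBS. WT Salmonella lay above all other libraries, M-2 least. Ccl2 was the most abundant ligand in 11 of the 12 libraries and held 36.9% to 50.1% of the sum there. In WT Salmonella M-1, where it held 22.7%, Ccl4 led with 27.4% and Ccl3 held 24.2%. Ccl3 and Ccl4 each held at most 7.83% in every other library. Ccl12 held 0.472% and 0.445% of the sum in WT Salmonella F-1 and M-1, against 4.16% to 7.85% in the other 10 libraries. Among all listed genes, Ccl2 ranked 104 to 157 in WT Salmonella, against 330 to 438 in WT PBS, and Ccl3 ranked 142 to 1297, against 7916 to 8533.

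**Figure D3:**
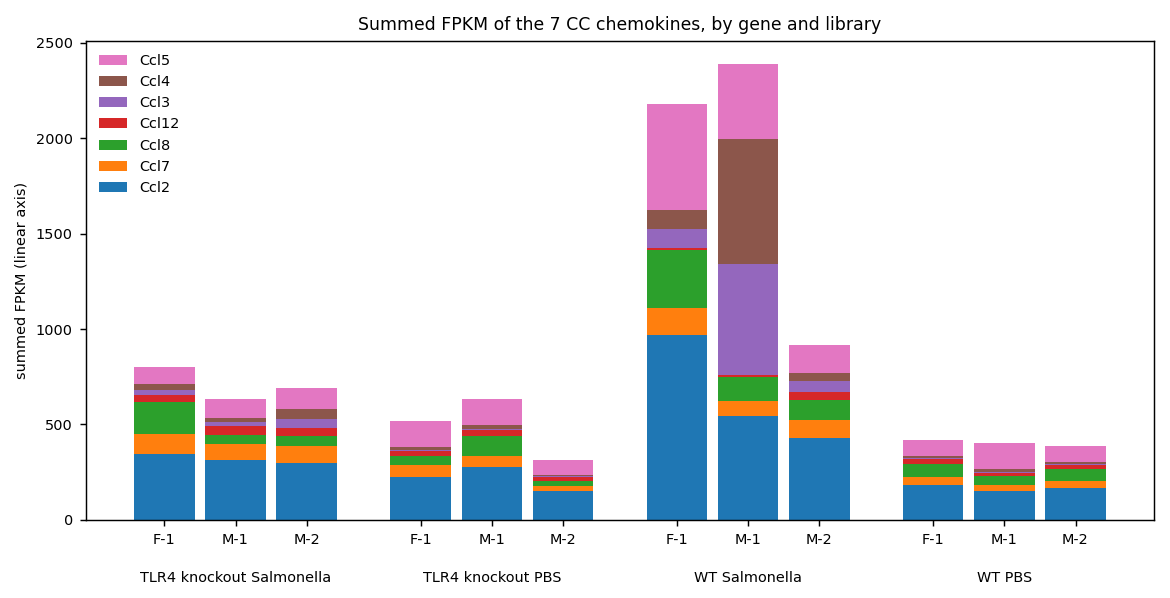
Summed FPKM of the 7 ligands (linear axis) in each library, split by gene, with TLR4 knockout Salmonella, TLR4 knockout PBS, WT Salmonella and WT PBS from left to right. WT Salmonella F-1 and M-1 reach 2180 and 2391 FPKM and differ in make-up: Ccl2 leads F-1, while Ccl3 and Ccl4 hold 24.2% and 27.4% of M-1.

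The FPKM ratio of Ccr1 to Ccr2 was 1.9, 1.53 and 1.85 in TLR4 knockout Salmonella, against 0.848, 1.03 and 1.06 in TLR4 knockout PBS. In knockout hosts it thus moved the same way as in WT hosts, by less, and through Ccr2 more than Ccr1, whose means were 9.16 ± 1.25 FPKM in TLR4 knockout Salmonella and 9.5 ± 3.97 FPKM in TLR4 knockout PBS. Ratios were not tested.

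Members could be set beside each other and beside all tested genes by the root mean square difference of log2 values over the 12 libraries, each gene centred on its mean. Ccl2 lay closest to Ccl7 among the members (0.348), Ccr1 to Ccl5 (0.355) and Ccl3 to Ccl4 (0.715), while Ccl12 and Ccr2 were closest to each other (0.816). The genes outside the list most like Ccl2 were Il13ra2, a decoy receptor of interleukin 13 (0.241), and Aldh1a2, an enzyme of retinoic acid synthesis (0.284). Those most like Ccl3 were Il1b (0.349) and the niacin receptor gene Hcar2 (0.435), and those most like Ccl4 were Mrgpra2b (0.374) and Il1rn, the interleukin 1 receptor antagonist (0.391). Ccl5 lay nearest to Ass1, the argininosuccinate synthase (0.29), and Fam20c, a secretory-pathway kinase (0.338). Ccr1 lay nearest to the histone gene H2bc18 (0.227) and the kinase gene Pim1 (0.251). Ccr2 lay nearest to Lair1, an inhibitory collagen receptor of leukocytes (0.173), and Ghr, the growth hormone receptor (0.174). For Ccl7 they were Ifi205 (0.318) and Fgf7 (0.345), for Ccl8 Plac8 (0.409) and Cd302 (0.426), and for Ccl12 Slfn9 (0.288) and Hap1 (0.324). The values share libraries and their depth and are descriptions.

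The rest of the CC family was sparser. Of 13 other CC ligand genes 7 were tested. In WT hosts 5 rose and 0 fell, beside 19.7% and 15.8% of all tested genes, with a median log2 change of 1.51. Ccl9, another CCR1 ligand, averaged 40.3 ± 16.6 FPKM in WT Salmonella and 5.76 ± 1.22 FPKM in WT PBS (SD, n = 3 each; log2 change 2.85, adjusted p = 0.0014). Ccl11, the eosinophil chemokine eotaxin, averaged 19.2 ± 13.4 FPKM in WT Salmonella and 4.4 ± 1.78 FPKM in WT PBS (log2 change 2.07, adjusted p = 0.0095). In TLR4 knockout hosts 0 of these 7 passed after Salmonella (0 in voom), beside 0.797% of all tested genes. There 4 had an unadjusted p under 0.05, beside 19.2%, and the median log2 change was 0.84. Between hosts under Salmonella only Ccl9 passed, beside 8.64% of all tested genes. It averaged 16.6 ± 9.31 FPKM in TLR4 knockout Salmonella and 40.3 ± 16.6 FPKM in WT Salmonella (log2 change -1.49, adjusted p = 0.046). That call was lost without 9 of the 12 libraries, all but WT Salmonella M-2, TLR4 knockout PBS M-2 and TLR4 knockout Salmonella F-1, with adjusted p of 0.0556 to 0.174. Of the 6 other CC ligands tested without WT Salmonella M-2, 1 rose in TLR4 knockout hosts and 3 were lower in TLR4 knockout than in WT tumours under Salmonella.

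Of 11 other CC receptor genes listed, 3 were tested, and 1 of them rose in WT hosts, beside 19.7% of all tested genes. Ccrl2, a chemerin-binding receptor that does not signal like a chemokine receptor, averaged 36.9 ± 21.5 FPKM in WT Salmonella and 3.53 ± 0.816 FPKM in WT PBS (SD, n = 3 each; log2 change 3.22, adjusted p = 0.00178). Ccr7, the lymph node homing receptor, did not pass (log2 change 1.43, adjusted p = 0.0819), and its highest Salmonella value was 20.2 FPKM against a lowest of 2.97 FPKM. It passed without WT Salmonella M-2 (2.12, adjusted p = 0.00618). Of the 3 tested genes 1 then rose in TLR4 knockout hosts and 2 rose in WT hosts, against 0 and 1 with all libraries, and 2 were lower in TLR4 knockout than in WT tumours under Salmonella, against 0.

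**Figure D4:**
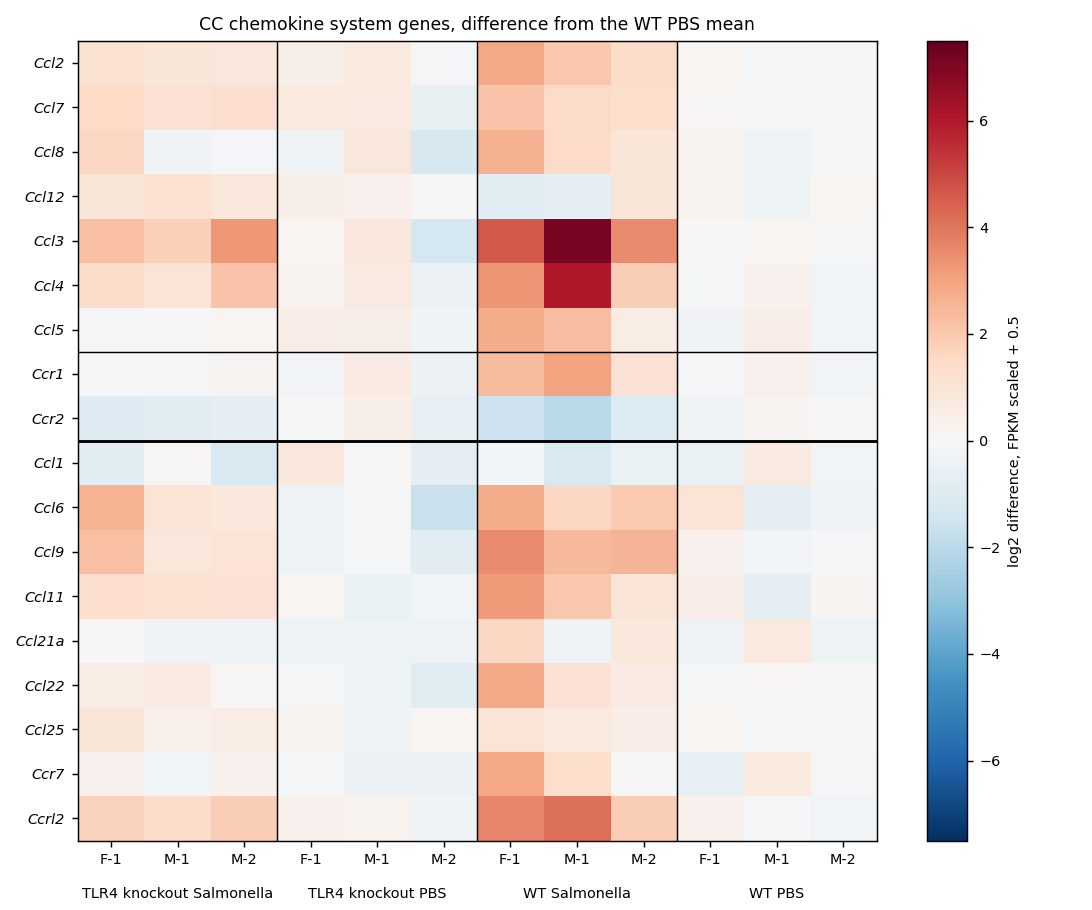
Log2 difference of each library from the WT PBS mean (scaled FPKM + 0.5, colour) for the 7 ligands, the 2 receptors and, under the thick line, 9 other CC family genes tested, with libraries in columns. Ccl3 and Ccl4 in WT Salmonella M-1 are 7.10 and 6.02 above the WT PBS mean, and Ccr2 is below it in all Salmonella libraries of both hosts.

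Of 17 tested genes of receptor signalling, which act below the receptors, 3 rose and 2 fell in WT hosts, beside 35.6% of all genes that passed. The median log2 change was 0.094, and without WT Salmonella M-2 there were 5 that rose and 2 that fell. Rac2, the Rac GTPase of blood cells, averaged 35.4 ± 14 FPKM in WT Salmonella and 11.3 ± 1.81 FPKM in WT PBS (log2 change 1.75, adjusted p = 0.0101). Arrb2, the beta-arrestin that helps switch receptors off, averaged 42.7 ± 3.03 and 34.6 ± 2.34 FPKM in the same groups (log2 change 0.51, adjusted p = 0.00945). Between hosts under Salmonella both were lower in TLR4 knockout tumours, Rac2 by a log2 change of -1.67 (adjusted p = 0.0352) and Arrb2 by -0.45 (adjusted p = 0.0428). Those calls were lost without 8 and 9 of the 12 libraries, with adjusted p of up to 0.134 and 0.171, while leaving out WT Salmonella M-2 or TLR4 knockout PBS M-2 kept both. Without WT Salmonella M-2, 1 of the 17 was higher and 8 were lower in TLR4 knockout tumours under Salmonella, against 0 and 2 with all libraries. With all libraries 2.63% of all tested genes were higher and 6.01% lower. The receptor kinase gene Grk6 did not pass in TLR4 knockout hosts (log2 change -0.36, adjusted p = 0.0757) or WT hosts (-0.005, adjusted p = 0.97).

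Several members are known targets of NF-kB or of interferon signalling. Of 10 NF-kB target genes 0 passed in TLR4 knockout hosts (0 in voom, 4 at an unadjusted p under 0.05, median log2 change 0.51). Of all tested genes 0.797% passed there. In WT hosts 8 rose (median 1.75), beside 19.7%. Under Salmonella 4 (3 in voom) were lower in TLR4 knockout than in WT tumours, beside 6.01% of all tested genes. Without WT Salmonella M-2, 9 were lower there, 3 rose in TLR4 knockout hosts and 10 rose in WT hosts. For the interaction 0 of the 10 passed, against 8 lower without that library. Il1b, the cytokine interleukin 1 beta, averaged 380 ± 334 FPKM in WT Salmonella and 9.9 ± 0.67 FPKM in WT PBS (log2 change 5.0, adjusted p = 0.000961). Zc3h12a, which degrades cytokine transcripts, and Nfkbia, the NF-kB inhibitor, had log2 changes of 2.33 (adjusted p = 0.00114) and 2.0 (adjusted p = 0.00169). Of 9 interferon target genes 1 rose in TLR4 knockout hosts, beside 0.469% of all tested genes. In WT hosts 1 rose and 1 fell, beside 19.7% and 15.8%, with a median log2 change of 0.33. With WT Salmonella M-2 left out, 3 rose in TLR4 knockout hosts, and 3 rose and 1 fell in WT hosts. Cxcl10, an interferon-induced chemokine, had a log2 change of 1.16 (adjusted p = 0.0495). The Cxcl10 call was lost without 10 of the 12 libraries, all but WT PBS F-1 and WT Salmonella M-2, with adjusted p of up to 0.15. Ifit1, an interferon-induced antiviral gene, rose in TLR4 knockout hosts (log2 change 0.97, adjusted p = 0.0437), where no member passed, and did not pass in WT hosts (0.33, adjusted p = 0.192). Its relative Ifit3 was higher in TLR4 knockout than in WT tumours under Salmonella (log2 change 1.05, adjusted p = 0.0217). The Ifit1 call was lost without 9 of the 12 libraries, all but WT PBS M-1, WT Salmonella F-1 and WT Salmonella M-2 (adjusted p up to 0.163). That of Ifit3 was lost without WT Salmonella F-1, WT Salmonella M-1 or any TLR4 knockout Salmonella library (adjusted p up to 0.0956).

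Markers of other cells moved beside the members, and their part in these results was not tested. Of 10 neutrophil markers 6 rose in TLR4 knockout hosts (1 in voom), beside 0.469% of all tested genes. All 10 rose in WT hosts (9 in voom), beside 19.7%. Under Salmonella 9 (6 in voom) were lower in TLR4 knockout than in WT tumours, beside 6.01%. Without WT Salmonella M-2 these counts were 7, 10 and 10. For the interaction 0 passed, against 7 lower without that library. Summed, the markers reached 541 to 961 FPKM in TLR4 knockout Salmonella and 15.7 to 18 FPKM in TLR4 knockout PBS, against 2784 to 18809 FPKM in WT Salmonella and 17.1 to 27.5 FPKM in WT PBS. Ly6g and Ngp were at 0 in all 3 TLR4 knockout PBS libraries. The highest neutrophil sum was in WT Salmonella M-1, at 18809 FPKM against 3077 in F-1 and 2784 in M-2, and that library also had the highest Ccl3, Ccl4 and Ccr1. Ccl2, Ccl8 and Ccl5 were instead highest in WT Salmonella F-1.

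Macrophage markers, from cells that carry many of these receptors and make many of the ligands, summed to 732 to 1055 FPKM in TLR4 knockout Salmonella and 834 to 1627 FPKM in TLR4 knockout PBS, against 519 to 1005 FPKM in WT Salmonella and 797 to 1495 FPKM in WT PBS. Of 14 such markers 2 rose and 2 fell in WT hosts (1 and 3 without WT Salmonella M-2). Of all tested genes 19.7% rose and 15.8% fell there. Apoe and C1qb did not pass in WT hosts (log2 changes -0.18 and -0.46, adjusted p = 0.681 and 0.318). Of 10 markers of inflammatory monocytes, the cells that leave the marrow through CCR2, 0 passed in TLR4 knockout hosts (0 in voom), beside 0.797% of all tested genes. At an unadjusted p under 0.05 there were 3, beside 19.2%. In those hosts 1 rose and 1 fell without WT Salmonella M-2. In WT hosts 6 rose and 0 fell, beside 19.7% of all tested genes that rose. The median log2 change of the 10 markers was 0.38 in TLR4 knockout hosts and 1.39 in WT hosts. The list summed to 470 to 626 FPKM in TLR4 knockout Salmonella and 681 to 887 FPKM in TLR4 knockout PBS, against 736 to 989 FPKM in WT Salmonella and 703 to 826 FPKM in WT PBS. These sums rest largely on Fn1. It averaged 409 FPKM in TLR4 knockout Salmonella and 647 FPKM in TLR4 knockout PBS, against 519 FPKM in WT Salmonella and 636 FPKM in WT PBS. In WT hosts Ly6c2, the monocyte surface marker Ly6C, did not pass (log2 change -0.22, adjusted p = 0.559), and neither did Fn1 (-0.12, adjusted p = 0.603). Ccr2 itself fell there (-1.54, limma adjusted p = 0.00341). Monocyte numbers were not measured. Under Salmonella 5 of the 10 were lower in TLR4 knockout than in WT tumours (4 in voom, 6 without WT Salmonella M-2), beside 6.01% of all tested genes.

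Most endothelial and fibroblast markers rose in WT hosts, as 5 of the ligands did. Of 8 tested endothelial markers 0 passed in TLR4 knockout hosts and 7 (6 in voom) rose in WT hosts, beside 19.7% of all tested genes. Under Salmonella 5 (4 in voom) were lower in TLR4 knockout than in WT tumours, beside 6.01%. The list summed to 42 to 61.1 FPKM in TLR4 knockout Salmonella and 30 to 43.4 FPKM in TLR4 knockout PBS, against 76.3 to 107 FPKM in WT Salmonella and 29.7 to 43 FPKM in WT PBS. In WT hosts the endothelial adhesion genes Pecam1 and Cdh5 had log2 changes of 1.21 (adjusted p = 0.0015) and 0.69 (adjusted p = 0.018). The Cdh5 call was lost without WT PBS M-1, WT Salmonella F-1 or WT Salmonella M-1 (adjusted p of 0.0614 to 0.0709). Of 7 fibroblast markers 0 passed in TLR4 knockout hosts, beside 0.797% of all tested genes. In WT hosts 5 rose (4 in voom) and 1 fell, beside 19.7% and 15.8%. Under Salmonella 3 (1 in voom, 4 without WT Salmonella M-2) were lower in TLR4 knockout than in WT tumours, beside 6.01%. In TLR4 knockout hosts voom also called 0 of both lists, and 2 endothelial and 4 fibroblast markers had an unadjusted p under 0.05. When WT Salmonella M-2 was left out, 1 of 7 tested endothelial markers rose and 1 fibroblast marker fell in TLR4 knockout hosts, and 2 fibroblast markers fell in WT hosts. Fibroblast markers summed to 436 to 584 FPKM in TLR4 knockout Salmonella and 307 to 429 FPKM in TLR4 knockout PBS, against 756 to 1211 FPKM in WT Salmonella and 313 to 490 FPKM in WT PBS. The matrix genes Dcn and Col1a1 had log2 changes of 1.29 (adjusted p = 0.00341) and 1.99 (adjusted p = 0.00488) in WT hosts. T and NK cell markers, from cells that are a known source of Ccl5, summed to 24.8 to 41.5 FPKM in TLR4 knockout Salmonella and 27.7 to 118 FPKM in TLR4 knockout PBS, against 24.4 to 53.5 FPKM in WT Salmonella and 40.3 to 73.1 FPKM in WT PBS. In WT hosts 0 of 11 tested markers were higher and 2 lower (0 in voom, 1 without WT Salmonella M-2). There 19.7% of all tested genes were higher and 15.8% lower. Any part of these cells in the Ccl5 level was not tested. Gzmb and Gzma did not pass (log2 changes -0.12 and 0.43, adjusted p = 0.872 and 0.5). Of the dendritic cell markers 2 were tested, of which Itgax fell (log2 change -2.25, adjusted p = 0.000143) and Zbtb46 did not pass (-0.22, adjusted p = 0.202), both in WT hosts. Of all tested genes 15.8% fell there. Of 3 tested platelet markers 1 rose in TLR4 knockout hosts, beside 0.469% of all tested genes, and 2 in WT hosts, beside 19.7%. Without WT Salmonella M-2 these counts were 2 and 3. Under Salmonella 2 (1 in voom) were lower in TLR4 knockout than in WT tumours, beside 6.01%. The list summed to 27.6 to 40 FPKM in TLR4 knockout Salmonella and 7.64 to 11.6 FPKM in TLR4 knockout PBS, against 124 to 149 FPKM in WT Salmonella and 9.69 to 10.3 FPKM in WT PBS. These sums rest largely on Pf4, which averaged 31.2, 8.88, 132 and 9.46 FPKM in the same groups.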

How the data were processed

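RNA was sequenced from 12 MC38 tumours or parts of them, in 4 groups of 3 libraries read from the genotype and treatment labels. TRIzol extraction and a VAHTS Universal V6 library kit are named per the labels' protocols. Fastp, HISAT2 and HTSeq are named in the submitters' processing notes without versions; build, annotation and strand setting are not stated there. Each library has its own table. The unit of the deposited values is not stated, and they were taken as FPKM. For all 18609 genes they gave whole fragments at 1 gene length, within 0.01 fragments. The library totals they implied, set relative to WT PBS F-1, were 0.999878 to 1.000083 of the summed fragments. Depth was 30508678 to 38758885 fragments.

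The 12164 genes that reached 0.5 FPKM in 3 or more libraries were tested. Values divided by a scaling factor, plus 0.5, entered limma 3.58.1 (R 4.3.3) as log2, with 1 mean per group, intensity trend, robust moderation and 8 residual degrees of freedom. The added 0.5 makes fold changes of low genes too small. Scaling factors were unweighted trimmed means of log ratios, with 30% of the ratios and 5% of the levels trimmed from both ends. Two-sided p-values were Benjamini-Hochberg adjusted across the 12164 genes, and passing means an adjusted p under 0.05. Intervals are at 95%. Overlap between groups was judged on FPKM as deposited, before scaling. The script was tested on simulated data.

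The members and gene lists were chosen with earlier results of these data known. Named genes are all members; from the lists of other CC genes, signalling, NF-kB and interferon genes, those with the 2 smallest p in WT hosts and for the interaction; from cell type lists the 2 most abundant; and for each member the 2 genes with the smallest root mean square difference. Other genes named are markers at 0 or epithelial markers and Tlr4. Some genes that this rule names are not reported here. Alternatives were 2 other scalings, pseudocounts of 0.1 and 1, no filter, other moderation, only the groups compared, the replicate label as a block, voom on the recovered fragments, each library left out and, chosen after seeing the data, the M libraries only.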

Additional observations from a re-analysis of the deposited data

Results flagged for a closer look

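The platelet chemokine gene Pf4, a CXC family gene among the platelet markers, had a test of the difference between hosts that passed. It averaged 31.2 ± 6.58 FPKM in TLR4 knockout Salmonella and 8.88 ± 1.97 FPKM in TLR4 knockout PBS, against 132 ± 10.1 FPKM in WT Salmonella and 9.46 ± 0.381 FPKM in WT PBS (SD, n = 3 each). The Salmonella effect in TLR4 knockout hosts minus that in WT hosts was -2.15 on the log2 scale (SE 0.23, limma adjusted p = 0.0078), and in voom on the recovered fragments it was -2.17 and did not pass (adjusted p = 0.0531). None of the 9 CC members passed this test with all libraries. The WT Salmonella libraries held 122 to 142 FPKM of Pf4.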

How the results depend on the processing

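Of 981 member results under the alternatives, 910 kept their direction and their side of the threshold, 31 lost a pass, 21 gained a pass and 19 changed sign. In WT hosts Ccl2 passed under all 22 alternatives, Ccl3, Ccl4, Ccl7, Ccr1 and Ccr2 under 21, and Ccl5 under 16, with adjusted p of up to 0.218. Between hosts under Salmonella, Ccr1 passed under 16 of 22 and Ccl5 under 8. The count of lower members there was 1 with no filter, 1 in voom and 0 with only the groups compared, where 1 member, Ccl12, was higher in TLR4 knockout hosts after Salmonella. With the M libraries only, 1 member (Ccl2) was higher and 0 lower in WT hosts and 0 lower between hosts under Salmonella, with 191 calls over all genes in WT hosts in place of 4326, 0 in place of 97 in knockout hosts, 2 in place of 1051 between hosts under Salmonella and 1 in place of 3 for the interaction; with 4 fewer libraries a lower count follows in part from the design.

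Leaving out each library in turn gave 5 to 7 members higher and 1 to 2 lower in WT hosts, 0 to 1 higher in TLR4 knockout hosts, 0 to 2 higher and 0 to 5 lower between hosts under Salmonella, and 0 to 1 higher and 0 to 4 lower for the interaction. The upper ends came without WT Salmonella M-2. Calls over all genes ranged from 2068 to 6203 in WT hosts, 4 to 778 in TLR4 knockout hosts, 10 to 4555 between hosts under Salmonella and 2 to 2237 for the interaction. In TLR4 knockout hosts 97 genes were called, against 64 with FPKM as deposited, 39 with no filter, 20 in voom and 199 with only the groups compared. Between hosts under Salmonella 1051 were called, against 519 in voom and 12 with only the groups compared; in WT hosts 2453 were called with only the groups compared. For the interaction 3 genes were called, against 6 with FPKM as deposited, 6 with other moderation and 0 in voom, and under PBS 1 gene was called with no filter. The cause of these shifts was not tested.

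With the replicate label as a block, 7 members were higher and 1 lower in WT hosts, as Ccl8 gained a pass (1.67, adjusted p = 0.0395), and 3 were lower between hosts under Salmonella, as Ccl2 gained one (-1.12, adjusted p = 0.0315). The replicate block gave 41 calls over all genes in knockout hosts. The labels are not stated to mark a shared animal, litter or batch, though libraries of 1 title letter are alike in their Y-linked fragments. Of 18 same-label pairs 7 correlated above 0.1, between -0.331 and 0.397.

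No value that changed sign had passed with all libraries or passed under the alternative. In WT hosts Ccl12 was -0.75 to 0.083 over the libraries left out, 0.083 without WT Salmonella F-1, 0.061 without WT Salmonella M-1 and 0.22 with the M libraries only. In TLR4 knockout hosts Ccr1 ranged up to 0.34 and was -0.050 and -0.18 without TLR4 knockout PBS F-1 and M-2, -0.052 without TLR4 knockout Salmonella M-2 and -0.039 with the M libraries only, where Ccl5 was 0.001 and Ccl8 -0.003. Under PBS, TLR4 knockout minus WT was -0.00046 for Ccr1 with a pseudocount of 0.1, -0.065 and -0.098 without WT PBS F-1 and M-2, and -0.30 without TLR4 knockout PBS M-1, where Ccl4 was -0.080. It was 0.021 for Ccr2 without WT PBS M-1, and without TLR4 knockout PBS M-2 it was 0.47 for Ccl3, 0.27 for Ccl8 and 0.20 for Ccr2; Ccl5 was -0.082 with the M libraries only. The other ends of the leave-one-out ranges were -0.57 for Ccl3, -0.75 for Ccl8, -0.34 for Ccr2 and 0.46 for Ccl4 under PBS, and, in WT hosts, -0.54 for Apoe, -0.26 for Fn1, -0.060 for Grk6, -0.42 for Gzmb and -0.40 for Ly6c2. Among other named genes in WT hosts, Ifit3 was -0.12 with FPKM as deposited, -0.14 without WT PBS M-1 and -0.040 without WT Salmonella F-1. Grk6 was 0.002, 0.008 and 0.070 without WT PBS F-1, WT PBS M-2 and WT Salmonella M-2. Apoe was 0.063 and 0.035 without WT PBS M-1 and WT Salmonella M-1, and Gzmb 0.055 and 0.12 without WT PBS M-1 and WT Salmonella M-2. Fn1 was 0.035 without WT Salmonella F-1 and 0.086 with the M libraries only, Gzma -0.37 with the M libraries only, and Ly6c2 0.13 without WT Salmonella M-2. Depth limits none of the members, each with at least 46 fragments in every library; 3 libraries a group do.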

Other observations

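Some CC family genes were at the floor of these data. Of the 13 other CC ligand genes, 6 did not pass the filter on low values, among them Ccl24, which was at 0 in all 3 libraries of TLR4 knockout PBS and of WT PBS, and Ccl20, at 0 in all 3 of WT PBS. Ccl21a, a lymph node chemokine that passed the filter, was at 0 in all 3 TLR4 knockout PBS libraries and averaged 0.615 ± 0.566 FPKM in WT Salmonella. Ccl6 was the other ligand outside the members with a marked level: it averaged 47.7 ± 34.6 FPKM in TLR4 knockout Salmonella and 9.68 ± 4.72 FPKM in TLR4 knockout PBS, against 59.3 ± 24.3 FPKM in WT Salmonella and 17.1 ± 11.9 FPKM in WT PBS (SD, n = 3 each). Its log2 changes in TLR4 knockout and WT hosts were 2.18 (limma adjusted p = 0.111) and 2.10 (adjusted p = 0.0249, lost without WT PBS M-1, WT PBS M-2 or WT Salmonella F-1 with adjusted p of 0.0792 to 0.102), and their difference was 0.078 (interval -1.85 to 2.01). Ccl6 and Ccl21a were chosen after their values were seen.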
